A study of Mus musculus with 8 samples.

Results

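Mammalian SWI/SNF (BAF) complexes are ATP-dependent chromatin remodellers, and the 30 genes described here encode their subunits. The set was fixed by gene name: all peaks of the 8 deposited ATAC-seq lists that overlapped one of these genes, or the 10 kb on either side of it, were collected. Of the 30 genes, 7 were treated as neuronal or tissue-restricted subunits (Actl6b, Dpf1, Dpf3, Smarcd3, Ss18l1, Bcl11a and Bcl11b) and 23 as ubiquitous ones, out of 21887 protein-coding genes annotated in mouse. Overlapping peaks (1 bp or more) from the lists were joined into 189914 regions, of which 427 lay at SWI/SNF genes.

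ATAC-seq, in which a transposase inserts sequencing adapters into open DNA, had been run on retinal ganglion cells (RGCs) of adult C57BL/6J mice of both sexes. AAV2 carrying GFP (the control, 3 samples), Ezh2 (3 samples) or Ezh2-Y726D (2 samples) was injected into the vitreous, the optic nerve was crushed 2 weeks later, and cells were sorted 3 days after the crush, with 50000 cells per library. Every group, the GFP control included, thus carried virus and a nerve crush. Ezh2 is the methyltransferase of Polycomb repressive complex PRC2, which trimethylates lysine 27 of histone H3, and Ezh2-Y726D is a form without catalytic activity. Cells were gated as live and CD90.2 (Thy1) positive, and Thy1 is carried by RGCs and, in mice, also by T cells. The gate was not on a viral label, so cells without the transgene may be included. How many animals went into a library, and whether replicates came from separate animals, is not given in the sources used here, so the spread between samples may be technical in part.

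SWI/SNF complexes use ATP to slide or evict nucleosomes, and genetic work in flies placed them in the Trithorax group, the antagonists of Polycomb. Polycomb complexes compact chromatin and keep genes silent, and SWI/SNF can remove them from chromatin. Each complex is assembled around an ATPase from subunits encoded by small gene families. As neural progenitors leave the cell cycle, the actin-like subunit Actl6a is replaced by Actl6b, Phf10 and Dpf2 give way to Dpf1 and Dpf3, and Ss18 gives way to Ss18l1, which is the best known subunit switch in neurons. The question asked of the peak lists was whether the genes of this Polycomb antagonist differed in accessibility when Ezh2 or its catalytically dead form was overexpressed.

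The lists held from 112939 to 135895 peaks, called in each sample separately, and sequencing depth is unknown. The fold of a peak is its summit pileup over the local background of the same library. It is given here as a percentile within its own list, where 100 is the strongest peak, because folds are not scaled between libraries. Sorted cells were checked against markers by counting genes with a peak within 1 kb of a start site. For RGC markers the count was 14 to 15 of 15 in every group. For T cell markers it was 12 to 14 of 15 in GFP, 14 to 15 in Ezh2 and 4 to 5 in Ezh2-Y726D, and for microglia and macrophage markers 8 to 12, 11 to 12 and 3 of 15. Peaks summed over the T cell markers and the 10 kb around them numbered 69 to 90 in GFP, 106 to 109 in Ezh2 and 44 to 47 in Ezh2-Y726D. The sums over microglia and macrophage markers were 65 to 77, 80 to 84 and 39 to 40. Neither Ezh2-Y726D list had a start-site peak at 10 T cell markers, Cd3e, Cd3d, Cd3g, Cd8a, Cd8b1, Lat, Lck, Zap70, Cd6 and Cd28, or at 12 microglial ones, Cx3cr1 and Csf1r among them; 2 of the 12, Aif1 and Fcrls, had none in any list. Rod markers had one at 9 of 10 genes in GFP, 6 to 8 in Ezh2 and 8 to 9 in Ezh2-Y726D, amacrine markers at 7 to 8 of 10 and Müller glia markers at 9 of 10 in every group. In a mixed sample, fewer cells of a type and less open chromatin per cell cannot be told apart. The part of these cells in the SWI/SNF results was not tested.

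The start sites come first, because their sequence is what most of these genes share. RefSeq (GRCm38.p6) gave a promoter window, from 250 bases before to 50 bases after the start, for 24 of the 30 genes, 26 windows in all. Printed below are the 250 bases before the start for the switching actin-like pair, for both ATPases, and for Bcl11b as the member with the fewest CG dinucleotides but Smarcd2. Each is written 5′ to 3′ on the strand of the gene, and capitals mark CG dinucleotides.
Actl6b, chr5:137553296-137553545, plus strand: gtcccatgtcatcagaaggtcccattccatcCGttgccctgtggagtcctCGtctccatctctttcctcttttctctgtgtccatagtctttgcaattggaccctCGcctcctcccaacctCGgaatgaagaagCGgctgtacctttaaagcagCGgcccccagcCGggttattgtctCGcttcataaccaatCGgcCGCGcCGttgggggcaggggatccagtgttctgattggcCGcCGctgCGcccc
Actl6a, chr3:32708296-32708545, plus strand: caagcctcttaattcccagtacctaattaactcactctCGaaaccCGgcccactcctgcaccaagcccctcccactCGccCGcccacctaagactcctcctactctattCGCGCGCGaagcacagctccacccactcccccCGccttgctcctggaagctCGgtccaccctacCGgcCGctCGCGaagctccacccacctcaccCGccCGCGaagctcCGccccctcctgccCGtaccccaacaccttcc
Smarca4, chr9:21615919-21616168, plus strand: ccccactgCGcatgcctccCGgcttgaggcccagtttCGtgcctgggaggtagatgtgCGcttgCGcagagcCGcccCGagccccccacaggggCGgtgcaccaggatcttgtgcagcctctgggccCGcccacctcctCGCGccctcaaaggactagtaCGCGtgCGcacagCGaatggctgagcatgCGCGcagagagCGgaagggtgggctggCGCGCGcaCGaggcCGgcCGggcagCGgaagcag
Smarca2, chr19:26604910-26605159, plus strand: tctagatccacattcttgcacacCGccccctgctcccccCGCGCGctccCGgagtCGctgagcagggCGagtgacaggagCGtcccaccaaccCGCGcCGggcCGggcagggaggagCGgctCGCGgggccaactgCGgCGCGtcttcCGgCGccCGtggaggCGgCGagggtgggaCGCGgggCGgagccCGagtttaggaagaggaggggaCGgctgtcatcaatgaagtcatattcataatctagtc
Bcl11b, chr12:108003415-108003664, minus strand: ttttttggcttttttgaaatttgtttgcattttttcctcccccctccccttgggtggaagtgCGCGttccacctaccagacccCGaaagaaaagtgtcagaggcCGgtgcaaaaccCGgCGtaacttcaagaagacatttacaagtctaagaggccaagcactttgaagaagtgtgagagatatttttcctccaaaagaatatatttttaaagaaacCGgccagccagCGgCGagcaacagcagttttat

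The printed stretches hold 15 CG dinucleotides in Actl6b, 19 in Actl6a, 25 in Smarca4, 28 in Smarca2 and 9 in Bcl11b. Over the full windows the median was 33 for the SWI/SNF genes (4 in Smarcd2 to 62 in Phf10), against 13 for all windows of protein-coding genes and 7 for all 32851 windows. Median GC content was 68.8%, against 52.7% for all windows. A GC box, GGGCGG on either strand, lay in 24 of 26 windows (92.3%), against 46.2% of the windows of protein-coding genes. Bcl11b and Dpf2 were the members without it. CCAAT was found in 5 windows (19.2%, against 38.2% of protein-coding windows), TATAAA in 2, Bcl11b and Smarcd2 (7.69%, against 12.6%), and CCGGAAG, the core of an ETS site, in 4 (15.4%, against 11.6%). The CRE TGACGTCA and the palindromic NRF1 motif were in none of them (2.23% and 1.33% of protein-coding windows). Both strands were searched for each motif, and motifs may overlap. Windows of the same gene were counted apart, and 2 of the 4 with CCGGAAG were overlapping windows of Brd9. A match is a run of letters, not a bound site.

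Peaks lay on nearly all of these windows. In 23 of the 26 windows all 8 lists had a peak. No list had one on the windows of Bcl11b and Smarcd2, and 4 lists had one on that of Bcl11a. The summit of the start-site peak lay at -74 to -69 bp from the start in Smarca4 in all 8 lists, where negative values are upstream, at -18 to 13 bp in Actl6b and at 80 to 91 bp in Actl6a. In Smarca2 it lay at -182 to -80 bp. In Bcl11b it lay at -744 to -562 bp, outside the printed stretch, which no peak touched. The listed start of Bcl11b lies 0.731 kb inside the gene. The printed stretch is thus within the gene, and the summits lay near its outer end. Across the 24 genes, the number of CG dinucleotides and the median start-site percentile had a Spearman correlation of 0.0427 (Pearson 0.256), given as a description, since the genes share the same 8 libraries.

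Open start sites were present at nearly every SWI/SNF gene in every group. A peak within 1 kb of the start was found in all 8 lists for 29 of 30 genes, against 64.7% of all protein-coding genes. Other remodeller families were alike, at 14 of 14 NuRD and CHD, 9 of 9 INO80 and SRCAP and 8 of 9 ISWI genes. The exception among SWI/SNF genes was Smarcd2, a core subunit, with such a peak in 6 lists. Its listed start lies 5.37 kb inside the gene, and its outer end had a peak in all 8 lists at percentiles of 66.4 to 78.5. The median start-site percentile of the genes with a peak in every list was 82.5, against 87.9 for all protein-coding genes. It was 57.9 for the 7 neuronal subunits and 87.8 for the ubiquitous ones. Medians over single lists ranged from 45.9 to 65.6 for neuronal and from 82.7 to 90.5 for ubiquitous subunits, but every list holds the same genes. By gene the classes overlapped. Medians ran from 8.26 (Smarcd3) to 98.3 (Actl6b) for neuronal and from 2.6 (Smarcd2) to 98.5 (Smarcc1) for ubiquitous subunits. The neuronal set includes Smarcd3, Bcl11a and Bcl11b, whose listed starts lie 22.5, 4.13 and 0.731 kb inside the gene. The 6 genes for which either gene end counted as start are all ubiquitous. By their median over lists, 12 genes stood at 90 or above, 6 at 75 to 90, 9 at 25 to 75 and 3 under 25.

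**Figure D1:**
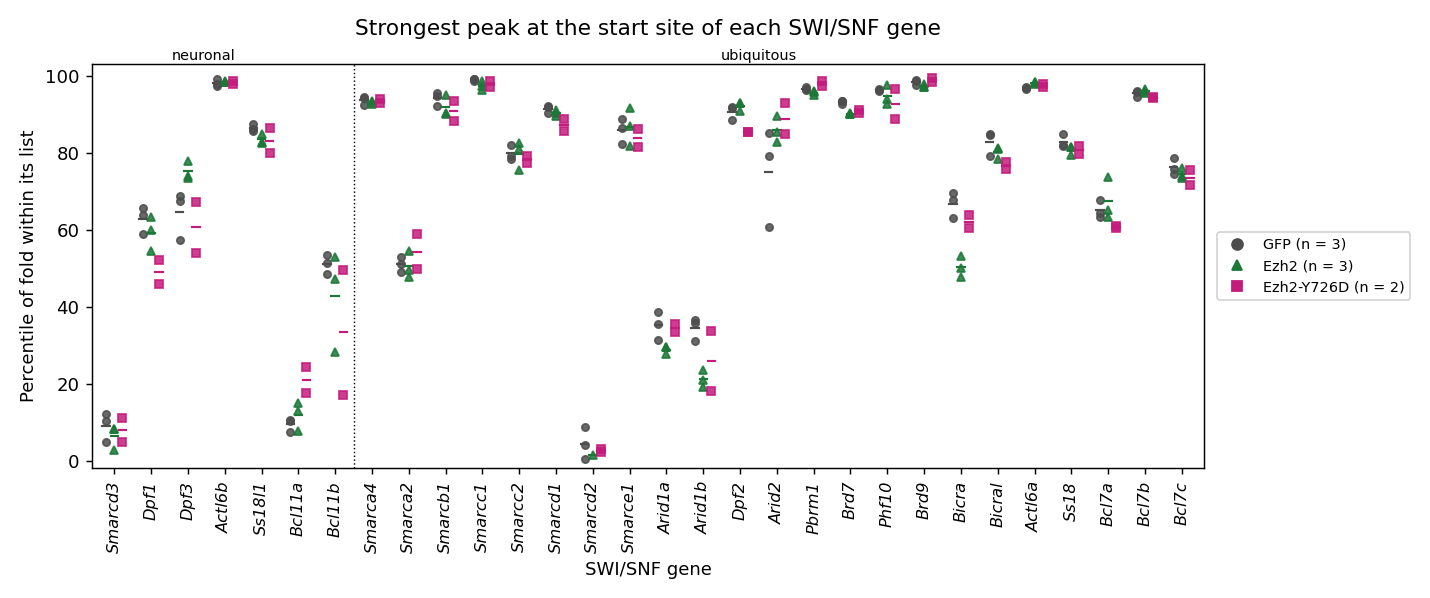
Percentile of fold within its list (vertical axis) of the strongest peak within 1 kb of the start site of each SWI/SNF gene (horizontal axis), 1 symbol per list and a short line at the group mean. Actl6b and Actl6a sit above 96 in all lists, while Smarcd3, Bcl11a and Smarcd2 sit below 25; colours of the 3 groups mostly intermingle.

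The ATPases, which burn the ATP, differed from each other at their starts. At Smarca4 the percentiles were 94.1, 94.4 and 92.3 with GFP, 92.7, 93.4 and 93.2 with Ezh2 and 92.8 and 93.9 with Ezh2-Y726D. At Smarca2 they were 51.1, 53.0 and 49.0 with GFP, 47.6, 54.5 and 49.5 with Ezh2 and 58.8 and 49.7 with Ezh2-Y726D. Every list thus placed the Smarca4 start above the Smarca2 start, and within each gene the groups overlapped. In the rank fit (limma on normal scores of the within-list rank, over all regions with a peak in all 8 lists) the Ezh2 against GFP difference was -0.0729 ± 0.155 (SE) at Smarca4 and -0.0250 ± 0.171 at Smarca2.

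Among the switching pairs, the neuronal actin-like gene Actl6b had start percentiles of 97.2, 97.8 and 99.2 with GFP, 98.2, 98.6 and 98.4 with Ezh2 and 97.7 and 98.6 with Ezh2-Y726D. Its progenitor counterpart Actl6a stood almost as high, with 96.4, 96.7 and 96.9 with GFP, 98.3, 98.2 and 97.7 with Ezh2 and 97.0 and 97.7 with Ezh2-Y726D. Both starts were thus near the top of every list, and Actl6b was the higher of the pair in 7 of 8 lists. For the PHD finger genes the order was the opposite. The neuronal PHD finger gene Dpf1 had percentiles of 58.9, 65.6 and 63.7 with GFP, 63.2, 54.4 and 59.8 with Ezh2 and 52.0 and 45.9 with Ezh2-Y726D. Dpf3, the other neuronal member, ranged from 54.0 to 77.9, with Ezh2 at 77.9, 74.0 and 73.5 above GFP at 68.7, 67.4 and 57.2. Dpf2 and Phf10 ranged from 85.3 to 92.9 and from 88.8 to 97.5. For the last pair, neuronal Ss18l1 ranged from 79.8 to 87.3 and Ss18 from 79.4 to 84.8, so that they overlapped. These levels are percentiles of peaks at starts and do not measure transcripts.

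Core subunits ranged widely, from Smarcd2, at 0.326 to 8.78 in its 6 lists, to Smarcc1. The scaffold gene Smarcc1 ranged from 96.3 to 99.1, its paralogue Smarcc2 from 75.4 to 82.6, Smarcb1, which contacts the nucleosome, from 88.2 to 95.5, Smarcd1 from 85.7 to 92.0 and Smarce1, an HMG-box subunit, from 81.4 to 91.6. At Smarcd3, the muscle and neuronal form, the listed start lies 22.5 kb inside the gene and its percentile was 2.69 to 12.1, whereas the outer end of the gene stood at 79.4 to 93.6. For the DNA-binding subunits of canonical BAF, Arid1a ranged from 27.6 to 38.6 and Arid1b from 18.0 to 36.4. In the PBAF complex Pbrm1 ranged from 94.9 to 98.6, Brd7 from 89.9 to 93.5 and the DNA-binding Arid2 from 60.7 to 92.8. Of the non-canonical complex, the bromodomain gene Brd9 ranged from 96.9 to 99.3, Bicral from 75.6 to 84.7 and Bicra from 47.8 to 69.4. The accessory genes Bcl7b, Bcl7c and Bcl7a spanned 94.1 to 96.6, 71.6 to 78.5 and 60.3 to 73.6. Of the zinc finger factors that copurify with BAF, Bcl11b ranged from 17.1 to 53.4 and Bcl11a from 7.30 to 24.2, with the listed start of Bcl11a 4.13 kb inside the gene and its outer end at 6.43 to 38.7.

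No start site of a SWI/SNF gene passed the rank test in any comparison. Of 35 regions at starts, 32 had a peak in all 8 lists, and limma called 0 of them in each comparison (Benjamini-Hochberg adjusted p below 0.05). Unadjusted p was under 0.05 for 1 of the 32 in Ezh2 against GFP, 3 in Ezh2-Y726D against GFP and 3 in Ezh2 against Ezh2-Y726D. The share of all start regions at that unadjusted threshold is not given here. Over all 11190 start regions tested, which came from listed starts only, limma called 0.733%, 1.78% and 4.89% by adjusted p. Differences spanned -0.533 to 0.427, -0.532 to 0.595 and -0.404 to 0.516 normal-score units. The lowest adjusted p was 0.0955 for Bicra, where the percentiles were 69.4, 67.6 and 63.1 with GFP, 47.8, 50.1 and 53.2 with Ezh2 and 60.3 and 63.7 with Ezh2-Y726D. The Ezh2 lists lay below all others there without passing the test (-0.533 ± 0.158, SE). Bicra has no promoter entry, so this region may lie at either end of the gene. In Ezh2-Y726D against GFP the lowest adjusted p was 0.182, for Dpf1 (-0.441 ± 0.185), and in Ezh2 against Ezh2-Y726D it was 0.116, for Dpf2 (0.446 ± 0.169). No start region was gained or lost between groups.

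Of the 427 regions, 35 lay at starts, 322 elsewhere in the gene and 70 in the flanks. A peak in all 8 lists was found for 195 (45.7%), against 36.6% of all regions, and 59 (13.8%) had a peak in 1 list. Another coding gene lay at 51 of the regions, so that these cannot be assigned to the SWI/SNF gene alone. The longest genes held the most regions, with 92 at Arid1b and 63 at Dpf3. Positions are GRCm38, and exons and introns were not distinguished here. The SWI/SNF genes carried 296, 291 and 328 peaks in the GFP lists, 323, 329 and 335 in the Ezh2 lists and 297 and 327 in the Ezh2-Y726D lists. Group means were 305 ± 20.1, 329 ± 6.00 and 312 ± 21.2 (SD, n = 3, 3 and 2). As a share of the list they were 0.253%, 0.254% and 0.246%, so the higher number in Ezh2 went with longer lists. Cut to equal length, the lists gave an Ezh2 minus GFP difference of -0.667 peaks in place of 24. Neuronal subunits carried 84.0 ± 5.00, 95.0 ± 4.58 and 91.5 ± 6.36 peaks and ubiquitous ones 221 ± 16.4, 234 ± 1.73 and 220 ± 14.8. As shares of the list these were 0.0698%, 0.0732% and 0.0722% for neuronal and 0.183%, 0.181% and 0.173% for ubiquitous subunits.

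**Figure D2:**
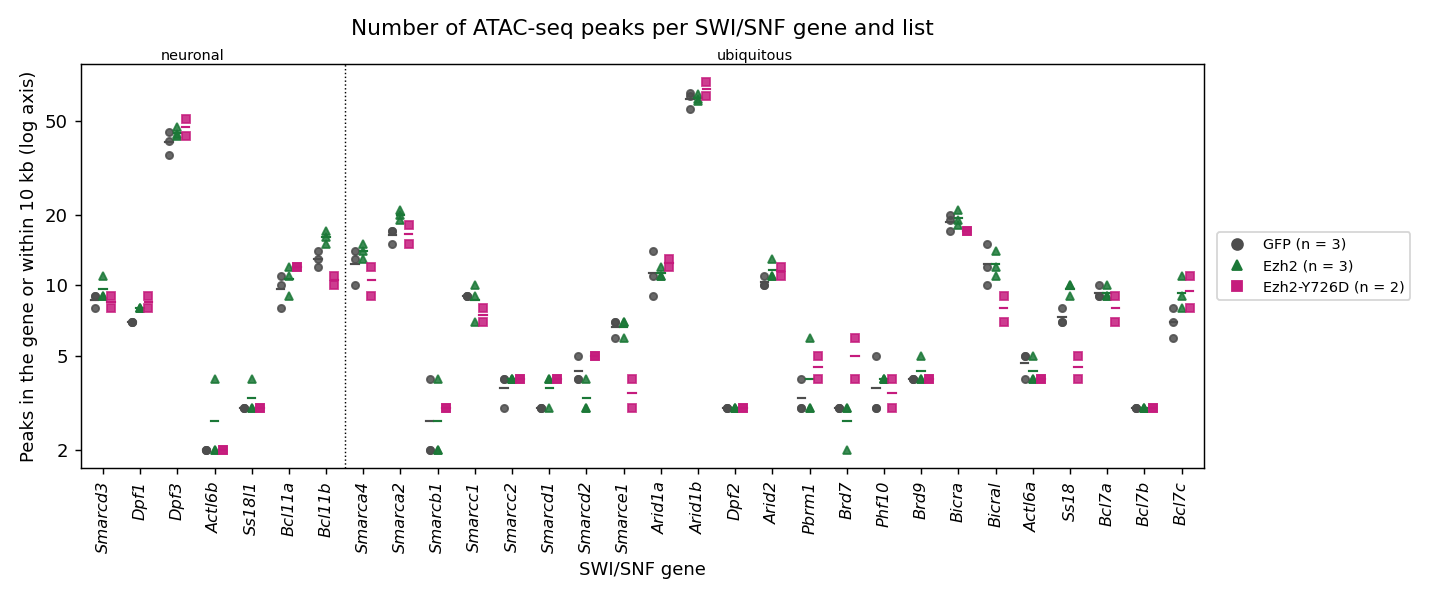
Number of peaks in each SWI/SNF gene or within 10 kb of it (vertical axis, logarithmic) by gene (horizontal axis), 1 symbol per list and a short line at the group mean. At Ss18 and Smarce1 both Ezh2-Y726D lists lie below every other list, and at Bcl11b the Ezh2 lists, at 15 to 17 peaks, lie above the rest.

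Peak number was tested in a second limma fit, on log2(number + 1) over the 17720 protein-coding genes with a mean of at least 1 peak. With Ezh2 against GFP, limma called 0 of the 30 genes, against 2.03% of all genes tested called higher, 0.886% lower and 2.91% in all. Of the 30, 5 genes had an unadjusted p under 0.05, but 0 with lists of equal length and 0 with -log10 q of at least 5. The share of all genes at that unadjusted threshold is not given here. The 5 were Dpf1, Ss18, Bcl11b and Smarca2, with more peaks in Ezh2, and Smarcd2, with fewer, at adjusted p-values of 0.111 (Dpf1) to 0.328 (Smarcd2). Without Ezh2 replicate 1 the fit called Smarcd1, and without either Ezh2-Y726D replicate it called Dpf1, all with more peaks in Ezh2.

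With Ezh2-Y726D against GFP, 3 genes were called, 2 with fewer peaks (4.45% of all genes) and 1 with more (1.25%; 5.69% in all). With lists of equal length Smarce1 alone was called. At Ss18, the progenitor partner of Ss18l1, the lists held 8, 7 and 7 peaks with GFP, 9, 10 and 10 with Ezh2 and 4 and 5 with Ezh2-Y726D. All Ezh2 lists exceeded all GFP lists, and both Ezh2-Y726D lists fell below them. The log2 difference of Ezh2-Y726D from GFP was -0.60 ± 0.10 (SE, adjusted p = 0.0292). At Smarce1 the numbers were 7, 6 and 7 with GFP, 6, 7 and 7 with Ezh2 and 4 and 3 with Ezh2-Y726D, a log2 difference of -0.78 ± 0.12 (adjusted p = 0.0252). Most of it came from the flanks: within Smarce1 itself the lists held 4, 3 and 3, 3, 3 and 3, and 3 and 2 peaks, and the test over gene bodies gave an adjusted p of 0.465. Dpf1 carried 7 peaks in each GFP list, 8 in each Ezh2 list and 8 and 9 in Ezh2-Y726D, a log2 difference of 0.25 ± 0.04 (adjusted p = 0.0342). Identical whole numbers within GFP and within Ezh2 make this SE small. The same test gave Dpf1 an adjusted p of 0.207 over gene bodies and 0.451 with -log10 q of at least 5. Each of these calls was lost without some single libraries. That of Ss18 was lost when any sample but Ezh2-Y726D replicate 2 was left out (adjusted p from 0.0521 to 0.0981), that of Dpf1 without any GFP or any Ezh2 sample (0.0710 to 0.0944), and that of Smarce1 without GFP replicate 1 or 3, Ezh2 replicate 2 or 3 or Ezh2-Y726D replicate 2 (0.0535 to 0.0789). The same fit called 3 of 15 T cell and 5 of 15 microglia and macrophage markers with fewer peaks in Ezh2-Y726D than in GFP, and their part was not tested.

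Ezh2 against Ezh2-Y726D gave 3 genes with more peaks in Ezh2 (9.24% of all genes) and 0 with fewer (1.73%; 11% in all). With lists of equal length the calls were Ss18 and Smarce1 with more and Brd7 with fewer. At Ss18 the log2 difference was 0.96 ± 0.10 (SE, adjusted p = 0.00313), and the call was made again without any single sample. At Bcl11b, a zinc finger factor of T cell development and of some projection neurons, the lists held 14, 13 and 12 peaks with GFP, 15, 17 and 16 with Ezh2 and 11 and 10 with Ezh2-Y726D. None of the 3 groups overlapped there. Its log2 difference was 0.56 ± 0.08 (adjusted p = 0.0120), which was lost without Ezh2-Y726D replicate 2 (0.0684). Smarce1 differed by 0.78 ± 0.12 (adjusted p = 0.0168), lost without Ezh2 replicate 2 or 3 and without Ezh2-Y726D replicate 2 (0.0531 to 0.0605). T cell and microglial markers again moved in the same direction, with 9 of 15 genes of each list called with more peaks in Ezh2 than in Ezh2-Y726D, and their part was not tested.

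Next, the 195 regions with a peak in all 8 lists were compared by rank. With Ezh2 against GFP, 2 regions ranked higher and 5 lower, or 3.59% in all, against 1.59% higher, 2.84% lower and 4.44% in all over the 69493 regions tested. The median absolute difference was 0.22, against 0.223 over all regions. Ranked by -log10 p the split was 4 higher and 5 lower. All 7 lay inside the genes, away from starts. The count fell to 4 without GFP replicate 1, 2 without GFP replicate 2, 3 without GFP replicate 3 and 1 without Ezh2 replicate 1 or without Ezh2 replicate 3. The share over all regions fell too, to 2.47%, 1.68%, 1.69%, 1.98% and 1.87% in this order.

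The regions that rose with Ezh2 lay in Arid1b and Arid1a, which hold 36 and 9 of the ranked regions. Arid1b also held 2 of the regions that fell. At chr17:5195404-5196361 inside Arid1b, 201 kb from its start, the percentiles were 24.6, 13.0 and 36.6 with GFP, 55.9, 64.2 and 66.4 with Ezh2 and 21.0 and 35.3 with Ezh2-Y726D. The Ezh2 lists stood above all others. Its difference from GFP was 1.09 ± 0.182 (SE, adjusted p = 0.0146), and it was called in each of 13 alternatives. At chr4:133706368-133707628 inside Arid1a, 47.0 kb from its start, the percentiles were 66.0, 61.5 and 75.4 with GFP, 86.2, 85.5 and 90.6 with Ezh2 and 59.0 and 65.9 with Ezh2-Y726D (0.808 ± 0.166, adjusted p = 0.0282). Here too the Ezh2 lists were the highest, but the call was lost without GFP replicates 1 or 2 and without Ezh2 replicates 1 or 3 (adjusted p from 0.0666 to 0.0896).

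Regions that fell with Ezh2 lay in Smarca4, Arid1b and Bcl11b. At chr9:21647432-21648239 inside Smarca4, 31.7 kb from its start, the percentiles were 75, 84.2 and 87.5 with GFP, 57.4, 65.2 and 48.0 with Ezh2 and 94.2 and 92.0 with Ezh2-Y726D. The 3 groups did not overlap, with Ezh2 the lowest and Ezh2-Y726D the highest. Against GFP the difference was -0.969 ± 0.209 (adjusted p = 0.0323), lost without GFP replicates 2 or 3 and without Ezh2 replicates 1 or 3 (0.0728 to 0.0968). At chr12:107980122-107980894 inside Bcl11b the percentiles were 46.4, 62.1 and 66.1 with GFP, 22.9, 21.5 and 31.8 with Ezh2 and 45.5 and 23.8 with Ezh2-Y726D (-0.996 ± 0.212, adjusted p = 0.0313). This call was lost without GFP replicates 2 or 3 and without any single Ezh2 sample (0.0658 to 0.0972), and by ranking on -log10 p it had an adjusted p of 0.528. Inside Arid1b at chr17:5021360-5022467 the percentiles were 51.7, 31.2 and 49.4 with GFP, 16.5, 21.6 and 10.4 with Ezh2 and 13.2 and 23.6 with Ezh2-Y726D. Both transgene groups lay below GFP there. The call in Ezh2 (-0.845 ± 0.192, adjusted p = 0.0386) was lost without any single sample (0.0526 to 0.118).

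The regions of Bcl11b were mostly of lower rank in Ezh2. Of its 9 ranked regions, 8 were lower in Ezh2 than in GFP, 2 of them called, with a median difference of -0.567, against 0.01 over all regions. Against Ezh2-Y726D again 8 of 9 were lower in Ezh2, 4 of them called. These counts share the Ezh2 samples and cannot be read as independent. Its peaks, as given above, were more numerous in each Ezh2 list than in any other, and this difference did not pass the test against GFP (log2 difference 0.28, adjusted p = 0.148). Other members also leaned to 1 side. Smarcd3 had 6 of 7 ranked regions lower in Ezh2 than in GFP, and Bcl11a had 5 of 5 higher. At Smarca4, 3 of 6 were lower and 3 higher. No share of this kind over all genes was computed, so the pattern cannot be read as particular to Bcl11b.

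**Figure D3:**
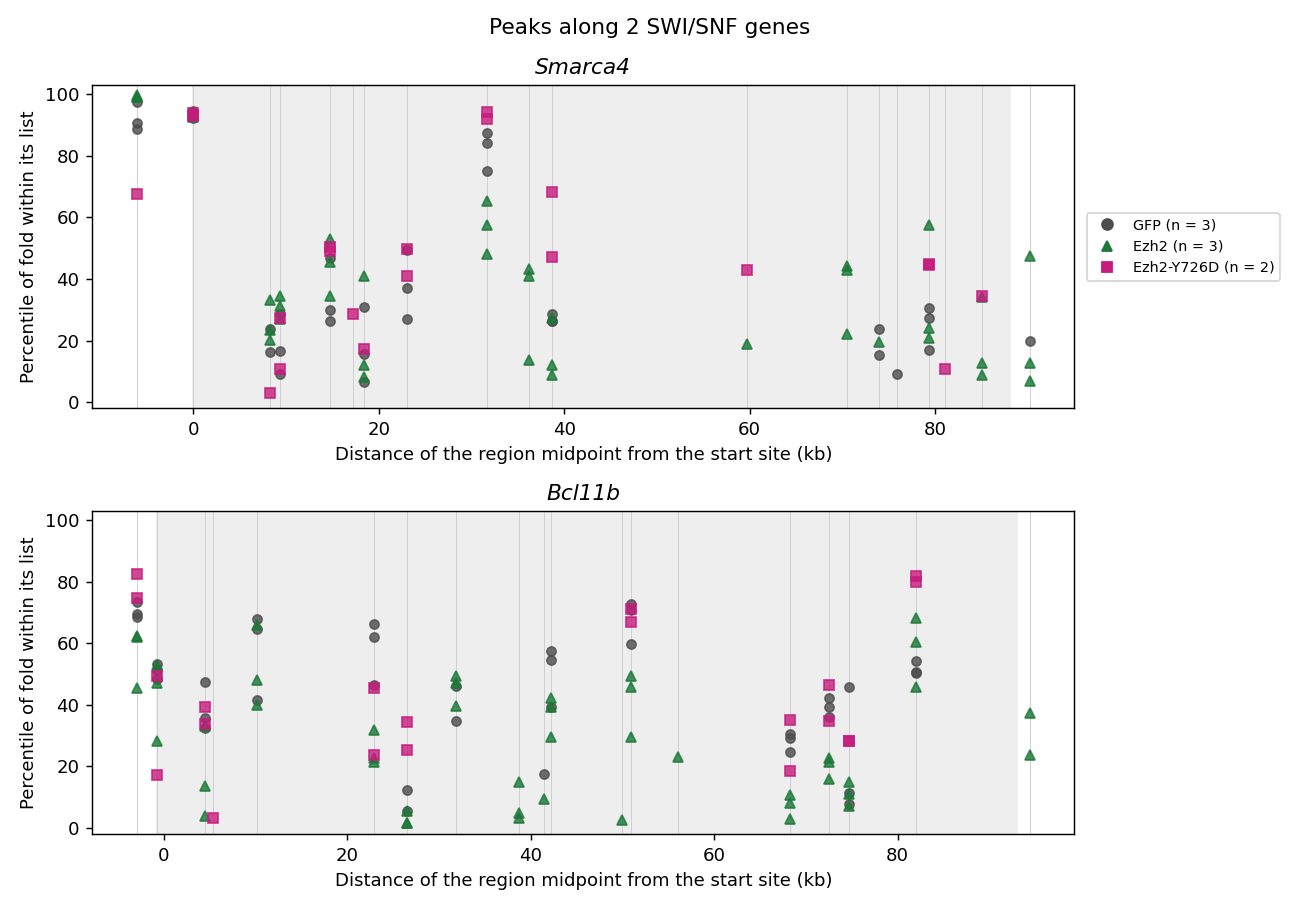
Percentile of fold within its list (vertical axis) of each peak along Smarca4 and Bcl11b, by distance of the region's midpoint from the start site in kb (horizontal axis); grey marks the gene, thin lines mark regions, and a missing symbol means no peak in that list. In Smarca4 the start sits above 92 in all lists while the region at 31.7 kb separates Ezh2-Y726D, GFP and Ezh2 from high to low.

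With Ezh2-Y726D against GFP, 3 regions ranked higher and 6 lower, 4.62% in all, against 3.55% higher, 4.65% lower and 8.21% in all over the regions tested. Of the 9, 7 lay inside the genes and 2 in flanks that belong to a neighbouring gene. The count was 2 without GFP replicate 1 and 5 without GFP replicate 2, beside 4.91% and 4.83% of all regions. It also fell with either Ezh2-Y726D sample left out, as did the share over all regions. Ranked by -log10 p the count was 18, against 10.1% of all regions. Inside Arid1b at chr17:5033822-5034555 the percentiles were 4.10, 4.44 and 8.89 with GFP, 30.3, 14.1 and 43.2 with Ezh2 and 50.9 and 35.8 with Ezh2-Y726D. Every list with a transgene for Ezh2, active or dead, lay above the GFP lists. For Ezh2-Y726D the difference was 1.30 ± 0.253 (adjusted p = 0.0156), lost without Ezh2-Y726D replicate 1 (0.128). Inside Bcl11b at chr12:107920761-107922078 the percentiles were 50.3, 54.3 and 50.8 with GFP, 68.1, 45.8 and 60.3 with Ezh2 and 79.9 and 81.7 with Ezh2-Y726D (0.969 ± 0.228, adjusted p = 0.0301). This call was lost without GFP replicates 1 or 3 and without either Ezh2-Y726D sample (0.0691 to 0.142). The third region, chr4:133671267-133671676 in the flank of Arid1a inside Pigv, stayed at or below a percentile of 7.55 in all lists (0.851 ± 0.193, adjusted p = 0.0268, lost without GFP replicates 1 or 2 and without either Ezh2-Y726D sample, 0.0677 to 0.181).

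The largest falls with Ezh2-Y726D were in Arid2, Smarca2 and the flank of Phf10. Inside Smarca2 at chr19:26675665-26676807, 71.1 kb from its start, the percentiles were 76.4, 83.5 and 85.5 with GFP, 74.5, 65.2 and 71.6 with Ezh2 and 37.0 and 51.4 with Ezh2-Y726D. Both Ezh2-Y726D lists were lowest (-1.30 ± 0.202, adjusted p = 0.00674), and the call was lost without Ezh2-Y726D replicate 1 (0.0656). Inside Arid2, the DNA-binding subunit of PBAF, at chr15:96376949-96377965 the percentiles were 94.9, 66.7 and 87.0 with GFP, 91.4, 91.8 and 90.8 with Ezh2 and 34.7 and 61.8 with Ezh2-Y726D. Against GFP it fell by 1.34 ± 0.353 (adjusted p = 0.0454), which was lost in 7 of 8 fits without a sample, the exception being that without GFP replicate 2 (0.0561 to 0.284). The region at chr17:14935780-14936524, in the flank of Phf10 and inside Wdr27, had percentiles of 93.2, 85.6 and 86.2 with GFP, 92.4, 96.2 and 98.3 with Ezh2 and 57.5 and 64.8 with Ezh2-Y726D. It fell by 1.17 ± 0.253 against GFP (adjusted p = 0.0227), lost without GFP replicate 1 and without either Ezh2-Y726D sample (0.0582 to 0.145). The lower T cell and microglial marker counts of Ezh2-Y726D stand beside all of these falls, and their part was not tested.

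Ezh2 against Ezh2-Y726D gave the most calls, 13 regions higher and 12 lower in Ezh2, 12.8% in all, against 7.0% higher, 6.96% lower and 14.0% in all over the regions tested. Of the 25, 22 lay inside the genes and 3 in flanks. The count fell to 13 without Ezh2 replicate 1, 16 without Ezh2 replicate 3, 5 without Ezh2-Y726D replicate 1 and 10 without Ezh2-Y726D replicate 2. Highest in Ezh2 was the Phf10 flank inside Wdr27 described above (1.79 ± 0.253, SE, adjusted p = 0.00242), called in each of 13 alternatives. Next came the Arid2 region (1.67 ± 0.353, adjusted p = 0.0132), lost without Ezh2-Y726D replicate 1 (0.119). Inside Ss18 at chr18:14653534-14654171 the percentiles were 11, 12 and 14.5 with GFP, 28.9, 21.9 and 28.5 with Ezh2 and 0.430 and 6.47 with Ezh2-Y726D, so that the groups did not overlap (1.24 ± 0.257, adjusted p = 0.0122, lost without Ezh2-Y726D replicate 1, 0.0906).

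Lowest in Ezh2 against Ezh2-Y726D was the Smarca4 region at 31.7 kb (-1.57 ± 0.233, SE, adjusted p = 0.00298), which was called in each of 13 alternatives. A second region of Smarca4, at chr9:21654464-21655373 and 38.7 kb from the start, had percentiles of 26.5, 28.7 and 26.3 with GFP, 12.2, 27.4 and 8.92 with Ezh2 and 68.1 and 47.3 with Ezh2-Y726D. Both Ezh2-Y726D lists lay above all others, with a difference of -1.25 ± 0.257 (adjusted p = 0.0116), lost without Ezh2-Y726D replicate 1 (0.108). Inside Bicra, a subunit of the non-canonical complex, the region at chr7:16003937-16005433 had percentiles of 40.5, 31.0 and 15.5 with GFP, 16.3, 9.85 and 27.8 with Ezh2 and 63.1 and 53.1 with Ezh2-Y726D. The difference was -1.18 ± 0.281 (adjusted p = 0.0215), lost without Ezh2 replicate 2 and without either Ezh2-Y726D sample (0.0585 to 0.150), and by ranking on -log10 p (0.126).

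**Figure D4:**
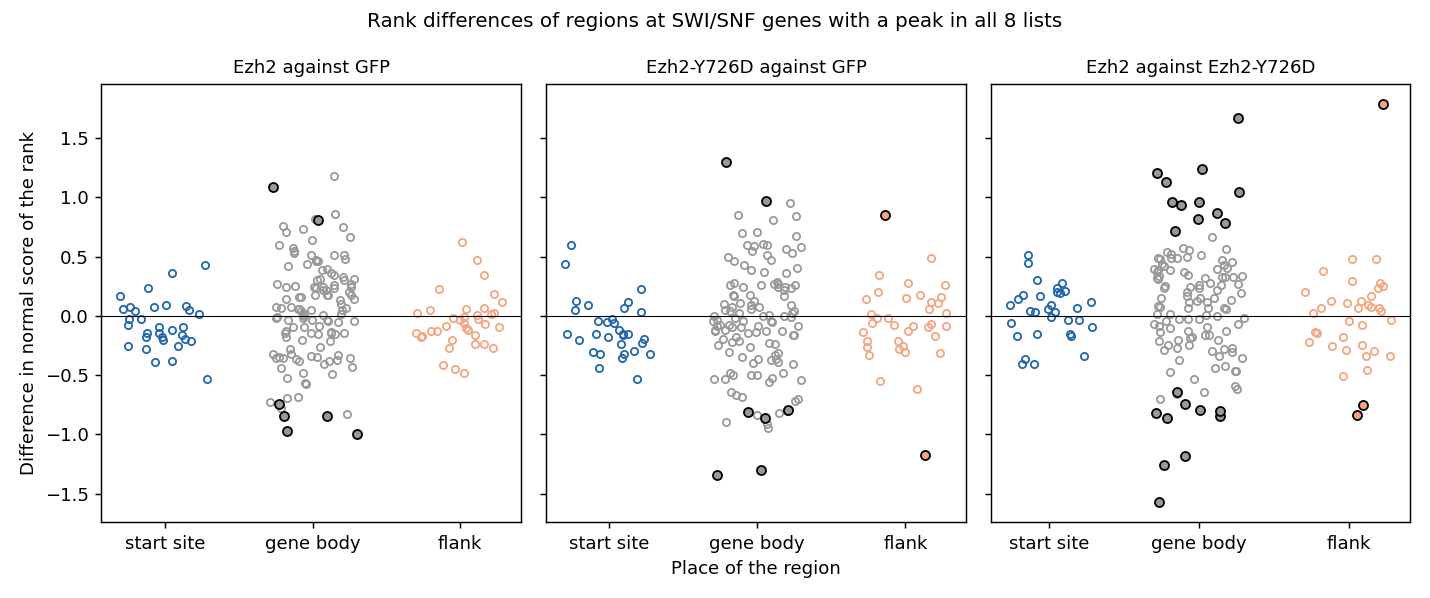
Difference in the normal score of the within-list rank (vertical axis) of the 195 SWI/SNF regions with a peak in all 8 lists, split by place (horizontal axis), in 3 panels for the 3 comparisons; filled points with a black edge are called by limma. No start-site region is called in any panel, and most of the 7, 9 and 25 calls lie in gene bodies.

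Regions that appeared or vanished were counted next, as those with a peak in every list of a group and in no list of the other, with no test. With Ezh2 against GFP, 12 of 427 regions (2.81%) were gained and 1 (0.234%) was lost, against 2.72% and 1.68% of all regions. With lists of equal length the split was 9 gained and 5 lost. Of the 12 gained, 8 had a peak in no Ezh2-Y726D list, and the corresponding share over all gained regions was not computed. The ATPase genes, with 19 regions at Smarca4 and 28 at Smarca2, held 5 of the 12. In Smarca4 the regions gained were chr9:21652180-21652629 (percentiles of 13.7, 41.0 and 43.4 in Ezh2), chr9:21686309-21687013 (42.9, 44.3 and 22.1) and chr9:21701148-21701465 (8.98, 12.9 and 34.3, and 34.6 in Ezh2-Y726D replicate 1). The single loss was also in Smarca4. It lay at chr9:21638852-21639597, with percentiles of 37.2, 49.4 and 27.2 in GFP, 41.0 and 49.8 in Ezh2-Y726D and no peak in Ezh2. All of these peaks were in the weaker part of their lists.

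Among the other gains, those with the highest percentiles lay in Ss18 at chr18:14626912-14627223 (53.5, 31.3 and 36.1 in Ezh2), in Smarca2 at chr19:26683760-26684149 (27.3, 51.5 and 36.1) and in Bcl7c at chr7:127699084-127699409 (49.2, 37.2 and 23.8, and 42.8 in Ezh2-Y726D replicate 2). Bcl7c encodes an accessory subunit. None of these regions had a peak in GFP. The total of 13 regions gained or lost rose to 22 without Ezh2 replicate 1 and to 28 without GFP replicate 3, since a region then meets the requirement more easily.

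With Ezh2-Y726D against GFP, 14 regions (3.28%) were gained and 18 (4.22%) lost, against 4.77% and 4.72% of all regions. Of the 18 lost, 15 had peaks in all Ezh2 lists, and of the 14 gained, 1 did while 5 had none there. The corresponding shares over all regions were not computed, so these counts cannot be read as particular to SWI/SNF genes. With lists of equal length the split was 15 gained and 20 lost, and 21 against 11 if only peaks spanning 0.5 or more of a region were counted. Strongest among the losses was chr11:99238052-99239007, in the flank of Smarce1 and inside Krt222, with percentiles of 70.1, 79.2 and 82.4 in GFP and 98.8, 98.9 and 98.0 in Ezh2. It was thus near the top of each Ezh2 list and had no peak in either Ezh2-Y726D list. In Ss18 the region at chr18:14675222-14676169 had percentiles of 64.5, 80.6 and 54.0 in GFP and 84.4, 80.9 and 84.0 in Ezh2. In Bcl11b the region at chr12:107992654-107993767 had 41.5, 64.5 and 67.8 in GFP and 66.0, 40.0 and 48.1 in Ezh2. Bicral, of the non-canonical complex, lost 3 of its 14 regions, the most of any member, at percentiles of 11 to 35.3 in GFP.

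Gains with Ezh2-Y726D had low to middling percentiles. The highest were in the flank of Bcl7c at chr7:127651906-127652417 (48.3 and 60.4 in Ezh2-Y726D) and chr7:127655820-127656124 (46.9 and 34.1) and in Smarca2 at chr19:26762166-26763239 (34.2 and 35.3, with 18.3, 10.3 and 7.99 in Ezh2). Arid1b gained 5 of its 92 regions, at percentiles of 33.5 or less. With 2 samples in a group the requirement is met more easily than with 3. The total of 32 was 49 without GFP replicate 3, 57 without Ezh2-Y726D replicate 1 and 55 without Ezh2-Y726D replicate 2. T cell and microglial markers with start-site peaks were also fewer in Ezh2-Y726D, as given above, and their part was not tested.

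Between Ezh2 and Ezh2-Y726D, 38 regions (8.90%) had peaks in all Ezh2 lists but no Ezh2-Y726D list, against 8.96% of all regions, and 13 (3.04%) the reverse, against 6.14%. With lists of equal length the numbers were 36 and 13. Of the 38, 15 also had a peak in every GFP list and 8 in none, without a corresponding share computed over all regions. The Smarce1 flank in Krt222 and the Ss18 region at 14675222 were the strongest of them, followed by chr19:26645845-26646656 in Smarca2 with percentiles of 28.7, 57.1 and 67.7 in GFP and 75.4, 77.6 and 83 in Ezh2. Arid1b held 7 of the 38, Ss18 5, and Bicral and Bcl11b 4 each. These genes had 92 (Arid1b), 11 (Ss18), 14 (Bicral) and 19 (Bcl11b) regions to begin with. Strongest among the 13 were regions of Smarca4 at 21638852, given above, of Bcl7c at 127655820 and of Dpf3 at chr12:83260633-83261218 (51.9 in GFP replicate 3 and 48.3 and 32.4 in Ezh2-Y726D). The total of 51 was 78 without Ezh2-Y726D replicate 1.

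**Figure D5:**
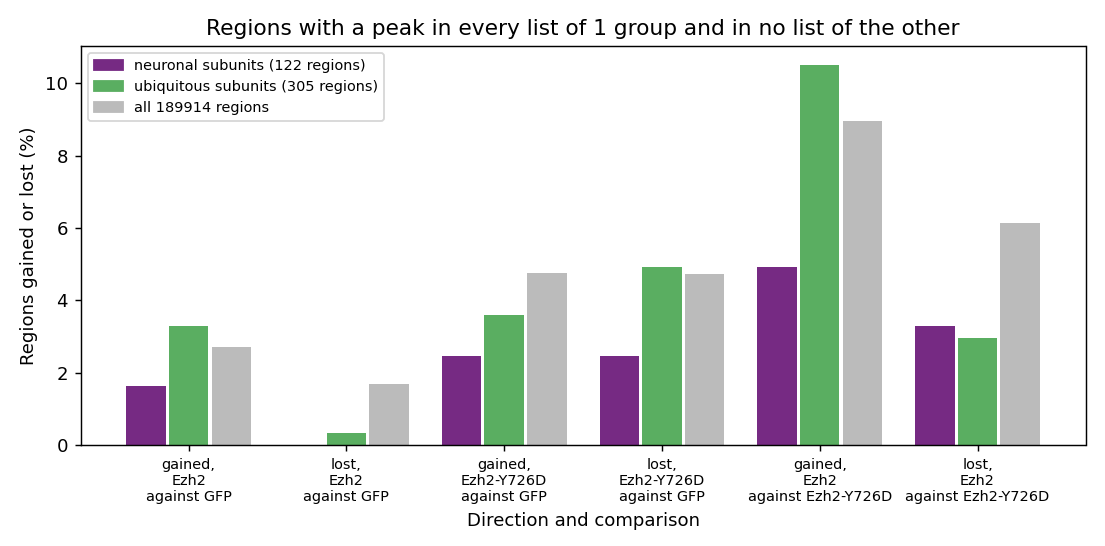
Share of regions in percent (vertical axis) with a peak in every list of 1 group and in no list of the other, by direction and comparison (horizontal axis), for the 122 regions at neuronal subunits, the 305 at ubiquitous subunits and all 189914 regions. The gain in Ezh2 against Ezh2-Y726D is 10.5% at ubiquitous and 4.92% at neuronal subunits, on either side of 8.96% over all regions.

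Neuronal and ubiquitous subunits were then set side by side. Of 122 regions at the 7 neuronal genes, 56 had a peak in all 8 lists, and of 305 at the 23 ubiquitous genes, 139 did. Rank calls were 2 of 56 (3.57%) and 5 of 139 (3.60%) in Ezh2 against GFP, 2 (3.57%) and 7 (5.04%) in Ezh2-Y726D against GFP and 6 (10.7%) and 19 (13.7%) in Ezh2 against Ezh2-Y726D. None of these shares exceeded the share over all regions. Regions gained in Ezh2 against GFP were 2 (1.64%) and 10 (3.28%), beside 2.72% of all regions, and regions lost were 0 and 1 (0.328%), beside 1.68%. In Ezh2-Y726D against GFP, gains were 3 (2.46%) and 11 (3.61%), beside 4.77%, and losses 3 (2.46%) and 15 (4.92%), beside 4.72%. In Ezh2 against Ezh2-Y726D, gains were 6 (4.92%) and 32 (10.5%), beside 8.96%. Losses there went the other way, at 4 (3.28%) and 9 (2.95%), beside 6.14%. Of the neuronal rank calls, those against GFP lay in Bcl11b and, for Ezh2-Y726D, also in Dpf3, where the region at chr12:83424439-83426798 had percentiles of 65.5, 64.2 and 63.2 with GFP, 65.9, 64.1 and 69.2 with Ezh2 and 39.9 and 35.0 with Ezh2-Y726D. It fell by 0.813 ± 0.174 (SE, adjusted p = 0.0218), and no SWI/SNF region was called in this comparison without Ezh2-Y726D replicate 1. The neuronal subunits Actl6b and Ss18l1 had no call, gain or loss. Nor had the ubiquitous Smarcc2, Smarcd1, Smarcd2, Brd9, Actl6a and Bcl7b. Differences between the subunit classes were not tested.

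Other ATP-dependent remodellers served as a reading of the same kind. Over 32 genes of the ISWI, NuRD and CHD, and INO80 and SRCAP families, the peak number fit called 0 in Ezh2 against GFP, 0 in Ezh2-Y726D against GFP and 2 in Ezh2 against Ezh2-Y726D, beside 2.91%, 5.69% and 11% of all genes. The 2 were Chd7, with 30, 28 and 32 peaks with GFP, 32, 33 and 34 with Ezh2 and 23 and 25 with Ezh2-Y726D (log2 difference 0.44, adjusted p = 0.0127), and Mta3, with 8, 7 and 10, 13, 14 and 14, and 7 and 6 (0.97, adjusted p = 0.0123). Of 11 PRC2 genes, the fit called Ezh2 itself, with 4, 5 and 6 peaks with GFP, 9, 10 and 9 with Ezh2 and 4 and 4 with Ezh2-Y726D. The log2 difference of Ezh2 from GFP was 0.80 (adjusted p = 0.0377) and that from Ezh2-Y726D 1.05 (adjusted p = 0.00909). Both Ezh2 and Ezh2-Y726D samples carried a transgene of this gene, and the part of the transgene in these peak numbers was not tested. All 11 PRC2 genes had a start-site peak in every list.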

How the data were processed

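ATAC-seq peaks were called by the authors in each sample separately with MACS2 after trimming and alignment to GRCm38 with cutadapt and Bowtie2, and SAMtools and Picard were also named, without versions, in the submitters' processing notes. The deposited lists gave, for each peak, the fold (a ratio of summit pileup to local background), the -log10 p, the -log10 q and a score derived from the q-value. The fold was ranked within each list, -log10 p and -log10 q served in alternatives, and the deposited score was not used. The lowest -log10 q of a list was 1.31 to 1.38. Depth is unknown, so no interval was set on a peak.

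The 30 genes, their classes and the marker lists were chosen with earlier results of these data known. Named were the switching pairs and ATPases, up to 3 called and up to 3 gained or lost regions per comparison and direction, and the genes called by peak number. Other genes and values in the text were picked after their values were seen. Peaks sharing 1 bp were joined into regions, and a region was assigned to a gene within 10 kb. Gene ends came from RefSeq (GRCm38.p6). For the 6 genes without a promoter entry (Smarce1, Arid2, Ss18, Bcl7a, Bicra and Bicral) either gene end counted as start. limma 3.58.1 in R 4.3.3 (lmFit and eBayes, adjusted p under 0.05, all 8 samples in 1 fit) tested normal scores of ranks in 69493 regions and log2(number + 1) in 17720 genes. Python 3.11.15, pandas 2.3.3 and scipy 1.17.1 did the rest. Titles and peak names number the Ezh2-Y726D samples differently, and titles were used.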

Additional observations from a re-analysis of the deposited data

How the results depend on the processing

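Rank calls in Ezh2 against GFP, 7 in the main analysis, were 1 to 7 with a GFP or Ezh2 sample left out, beside 1.68% to 3.05% of all regions. In Ezh2-Y726D against GFP they were 9, then 18 when ranked by -log10 p (10.1% of all regions). With a GFP or Ezh2 sample left out they were 2 to 9, beside 4.83% to 7.88%. In Ezh2 against Ezh2-Y726D they were 25, then 13 to 21 with such a sample left out, beside 9.59% to 13.5%. Both counts and shares also fell with an Ezh2-Y726D sample left out. The peak number fit called 0 genes in Ezh2 against GFP, and 0 to 1 with a GFP or Ezh2 sample left out, beside 3.1% to 4.84% of all genes. In Ezh2-Y726D against GFP it called 3 genes, 1 with lists of equal length (8.16% of all genes) and 0 with -log10 q of at least 5 (4.32%). It called 1 over gene bodies (4.29%) and 0 to 2 with a GFP or Ezh2 sample left out (4.9% to 6.6%). In Ezh2 against Ezh2-Y726D it called 3, 1 with -log10 q of at least 5 (8.85%) and 2 to 4 with a GFP or Ezh2 sample left out (8.66% to 12.2%). This count moved either way with an Ezh2-Y726D sample left out. Gained and lost regions together rose from 13 to between 16 and 28, from 32 to between 39 and 57 and from 51 to between 57 and 78 when a sample was left out. Their shares over all regions rose too, from 4.4% to between 5.71% and 7.0%, from 9.49% to between 11.8% and 15.6% and from 15.1% to between 17.4% and 21.4%. The Ezh2 minus GFP difference of 24 peaks was -0.667 with lists of equal length and 17 to 35.5 with a sample left out. Differences of 7 and 17 peaks in the other comparisons spanned -8 to 22 and 2 to 32. Where an Ezh2-Y726D sample was left out of a fit, the remaining one was assumed to vary like the other groups. Why these counts moved was not tested, beyond the smaller number of samples or peaks that each alternative has by construction.

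Deviations of same-numbered samples had correlations of -0.0151 to 0.0478 over 7 pairs by title and 0.0018 to 0.0478 by peak name. Those of differently numbered samples were -0.0482 to 0.0461 by title and -0.0482 to 0.0303 by peak name. In a group of 2, as in Ezh2-Y726D, the deviations mirror each other, so these correlations are not independent. This check cannot exclude a pairing. With a replicate block by title number the rank calls were 2, 6 and 16, in the order above, beside 3.17%, 6.92% and 11.6% of all regions. By peak-name number they were 2, 4 and 13, beside 2.82%, 4.67% and 9.66%. The block by title gave 0, 1 and 2 calls of peak number, beside 2.69%, 4.62% and 7.1% of all genes. Of the main calls it made again 0 of 3 in Ezh2-Y726D against GFP and 1 of 3, Ss18, in Ezh2 against Ezh2-Y726D, and Smarcb1 was called newly in both.

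Of the alternatives run on each named region, 150 left its call in place and 68 did not, and for the named genes' peak numbers these were 46 and 38, with 0 reversals. Start sites had a peak in all lists for 29 genes under each alternative run, or 30 with the outermost gene ends. That alternative, and leaving out regions in or at another gene, were chosen after seeing the data; without those regions the rank calls were 7, 7 and 23. Few samples and unknown depth limit these lists, and an absent peak means one below the caller's threshold, which does not show closed chromatin.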
